A study of Mus musculus with 6 samples.

Results

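The 100 genes described here had their highest mRNA level on day 2 of erythroid differentiation in MEL cells, a mouse erythroleukemia line, with lower levels both before treatment and on day 4. They were selected on the measured values themselves. Counts were scaled to CPM, the reads of a transcript per 1000000 reads counted on all transcripts of a library, 1 transcript stood for each gene (the one with the highest mean count), and each gene was scored by the smaller of 2 differences in log2(mean CPM + 1), day 2 minus day 0 and day 2 minus day 4. Both day 2 libraries also had to lie above all 4 other libraries, and the 100 genes with the highest scores were kept out of 23896 named genes. Of the 16111 genes with at least 1 count, 2299 (14.3%) met the separation of libraries, so separation alone was common. All 100 members were also among the 12381 genes that passed the filter on low counts and entered the test.

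The libraries were stranded mRNA-seq of a single cell line grown in suspension, with 2 biological replicates on each of 3 days and 6 libraries in all. Day 0 cells had received no DMSO, and the day 2 and day 4 cells had grown for 2 or 4 days in 2% DMSO, the agent that induces differentiation. An untreated culture of the same age as the day 2 or day 4 cells is not among these libraries, so days in culture and days in DMSO cannot be told apart. Transcript counts ranged from 35294930 to 53899476 per library. The members' level was between 1.23 and 179 CPM on day 2, which is 48 counts at the least in any day 2 library.

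MEL cells are held at the proerythroblast stage by a transforming virus complex, and DMSO releases them into a terminal program in which globin and heme synthesis rise, the cells go through a last series of divisions and then leave the cell cycle, and the nucleus compacts. The genes of DNA replication, recombination repair and mitosis are usually transcribed together from late G1 to mitosis under E2F factors and the MuvB complex, with the pocket proteins as repressors. Erythroid promoters are read mainly by GATA1 and KLF1, which bind GATA and CACCC sequences.

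The libraries carried the erythroid identity that their label gives. The summed level of 37 erythroid genes was 3884 and 3830 CPM on day 0, 6926 and 7524 CPM on day 2 and 10300.2 and 10872 CPM on day 4, so the days did not overlap. None of these 37 genes was called both higher on day 2 than on day 0 and lower on day 4 than on day 2 (edgeR, adjusted p below 0.05). Of all genes tested, 2.18% had both calls, so a count of 0 in this list does not set it apart. Replicates differed beyond counting noise, most on day 0. Because these are bulk libraries, fewer cells expressing a gene and less of its RNA per cell cannot be told apart. The fit to all genes used library scaling by trimmed means (TMM). With total counts in its place the median gene shifted by 0.21 on the log2 scale for day 2 against day 0 and by -0.09 for day 4 against day 2.

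Promoter sequences were available for 80 of the 100 members and for 9680 of the 12381 genes tested, from 250 bases before to 50 bases after the RefSeq transcription start. The CACCC sequence (CCACCC on either strand) was in 52.5% of the members' promoters and in 36.8% of all promoters. The GATA sequences (AGATAA, its form ending in G, or either of these with T as the first letter, on both strands) were in 18.8% and 18.6%. A few promoters are printed to show where such matches lie. The first 4 were picked among members with a match, and the promoter of 2410006H16Rik, the member with most RNA per kilobase, is set beside them as one without. They belong to Crip1 (chr12:113151762-113152061, plus strand), Hebp1 (chr6:135168166-135168465, minus strand), Rbl1 (chr2:157204485-157204784, minus strand), Chek2 (chr5:110839733-110840032, plus strand) and 2410006H16Rik (chr11:62602627-62602926, plus strand), all in GRCm38.p6 and written 5′ to 3′ along the gene's strand, with capitals for CACCC, GATA and E2F (TTTCGCGC or TTTGGCGC) matches on either strand.
Crip1: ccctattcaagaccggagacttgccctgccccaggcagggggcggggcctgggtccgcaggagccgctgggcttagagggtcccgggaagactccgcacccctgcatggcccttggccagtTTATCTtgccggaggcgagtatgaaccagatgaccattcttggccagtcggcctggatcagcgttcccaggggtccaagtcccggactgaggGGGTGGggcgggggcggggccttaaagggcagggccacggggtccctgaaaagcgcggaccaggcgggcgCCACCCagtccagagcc
Hebp1: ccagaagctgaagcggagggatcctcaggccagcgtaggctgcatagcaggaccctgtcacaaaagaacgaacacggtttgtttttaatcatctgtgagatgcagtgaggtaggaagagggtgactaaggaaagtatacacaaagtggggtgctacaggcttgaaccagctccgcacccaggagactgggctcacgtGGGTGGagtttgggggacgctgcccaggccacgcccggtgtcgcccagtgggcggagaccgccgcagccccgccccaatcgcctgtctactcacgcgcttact
Rbl1: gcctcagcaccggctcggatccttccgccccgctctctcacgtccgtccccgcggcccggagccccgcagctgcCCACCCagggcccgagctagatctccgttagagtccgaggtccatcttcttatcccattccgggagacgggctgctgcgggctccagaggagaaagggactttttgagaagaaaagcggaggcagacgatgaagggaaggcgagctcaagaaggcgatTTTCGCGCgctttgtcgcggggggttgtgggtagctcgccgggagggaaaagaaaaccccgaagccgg
Chek2: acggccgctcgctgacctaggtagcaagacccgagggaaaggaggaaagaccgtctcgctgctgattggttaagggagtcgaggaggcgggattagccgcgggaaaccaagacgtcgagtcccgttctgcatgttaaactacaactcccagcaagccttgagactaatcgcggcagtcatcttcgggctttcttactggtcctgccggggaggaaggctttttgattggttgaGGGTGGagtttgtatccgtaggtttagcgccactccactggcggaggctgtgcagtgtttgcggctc
2410006H16Rik: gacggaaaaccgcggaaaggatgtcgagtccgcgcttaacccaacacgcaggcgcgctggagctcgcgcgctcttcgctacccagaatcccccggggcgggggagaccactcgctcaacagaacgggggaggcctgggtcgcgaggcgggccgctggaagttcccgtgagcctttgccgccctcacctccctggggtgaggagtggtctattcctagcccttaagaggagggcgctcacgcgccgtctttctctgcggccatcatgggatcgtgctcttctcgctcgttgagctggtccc
The Crip1 promoter held 1 GATA match 129 bases before the start, read on the opposite strand, and CACCC matches 37 bases before and 33 bases after it. The Hebp1 and Chek2 promoters each held 1 CACCC match, 53 and 17 bases before the start. In the Rbl1 promoter the E2F match lay 18 bases before the start and the CACCC match 176 bases before it. A match is a description of letters and says nothing of binding in these cells.

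The peak was moderate in size for most members. Scores ran from 1.42 to 0.60 with a median of 0.70, and 6 members reached a score of 1. The median member was 2.16 times as high on day 2 as on day 0 and 1.87 times as high on day 2 as on day 4. These CPM folds, like the scores, carry the shift that total counts give the median of all genes. With TMM scaling the members' median log2 fold change was 0.91 from day 0 to day 2. From day 2 to day 4 it was -0.81. In CPM, the smaller of the 2 differences was that to day 4 for 61 members and that to day 0 for 39. That split carries the same shift. The lower day 2 library was between 1.26 and 2.79 times the highest of the 4 other libraries, with a median of 1.54. Replicates were over 1.5 times apart for 11 members on day 0, for 12 on day 4 and for 0 on day 2.

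**Figure D1:**
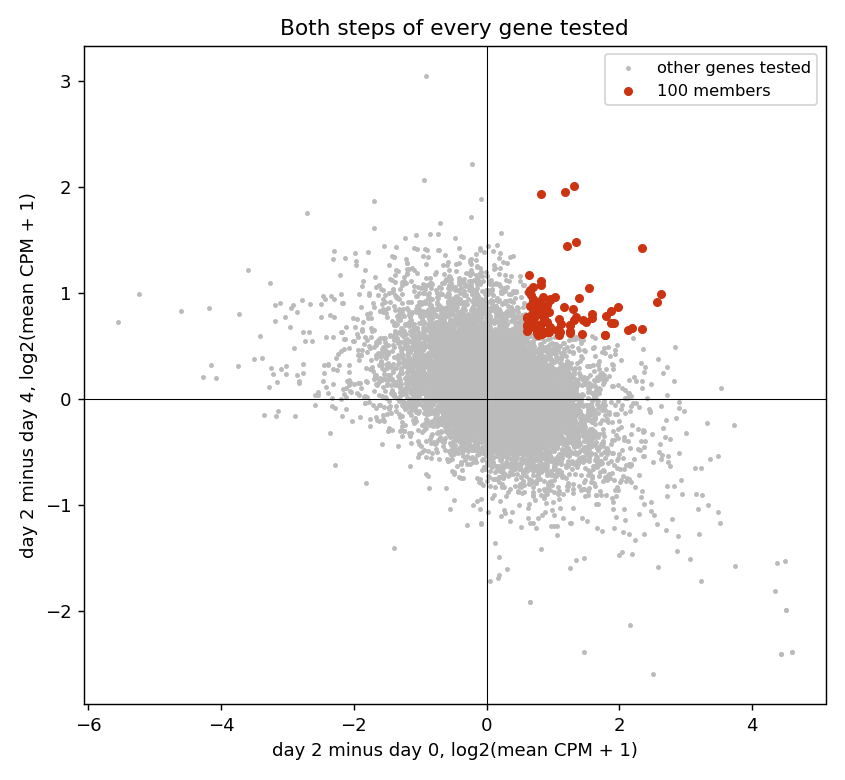
Each point is one of the 12381 genes tested, with day 2 minus day 0 on the horizontal axis and day 2 minus day 4 on the vertical axis, both in log2(mean CPM + 1). The 100 members (red) fill the upper right corner, where both differences are at least 0.60, because they were chosen by these values.

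In the edgeR fit over all 6 libraries, 31.0% of all genes tested were called higher on day 2 than on day 0 at an adjusted p below 0.05, 16.2% were called lower on day 4 than on day 2, and 2.18% (270 genes) had both calls. All 100 members had both calls. Since these are the contrasts that chose the members, nothing is read from that count. The number of genes with both calls was sensitive to single libraries. It was 37 without day 2 replicate 1, 68 without day 2 replicate 2, 138 without day 4 replicate 1, 109 without day 4 replicate 2, 434 without day 0 replicate 1 and 398 without day 0 replicate 2. Of the members, 35 had both calls without day 2 replicate 1 and 56 without day 2 replicate 2.

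The comparison that is not itself scored is day 4 against day 0, which asks whether the members went back to their starting level, below it or only part of the way. It draws on the same libraries as the score and is not free of the selection. On the scale of the score it is the gap between the 2 differences, both at least 0.60 in every member. Genes that rose at both steps or fell at both could not be members, so the shares of all genes are background only. At day 4, 31 members were higher than on day 0, where 35.5% of all genes tested were higher, and 10 were lower, where 36.4% of all genes were lower. The other 59 were not called, which does not show that their levels were equal. Over the members this contrast had a median log2 fold change of 0.01, and over all genes tested a median of -0.02. The count of lower members rose to 16 without day 0 replicate 1 and to 19 without day 0 replicate 2.

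**Figure D2:**
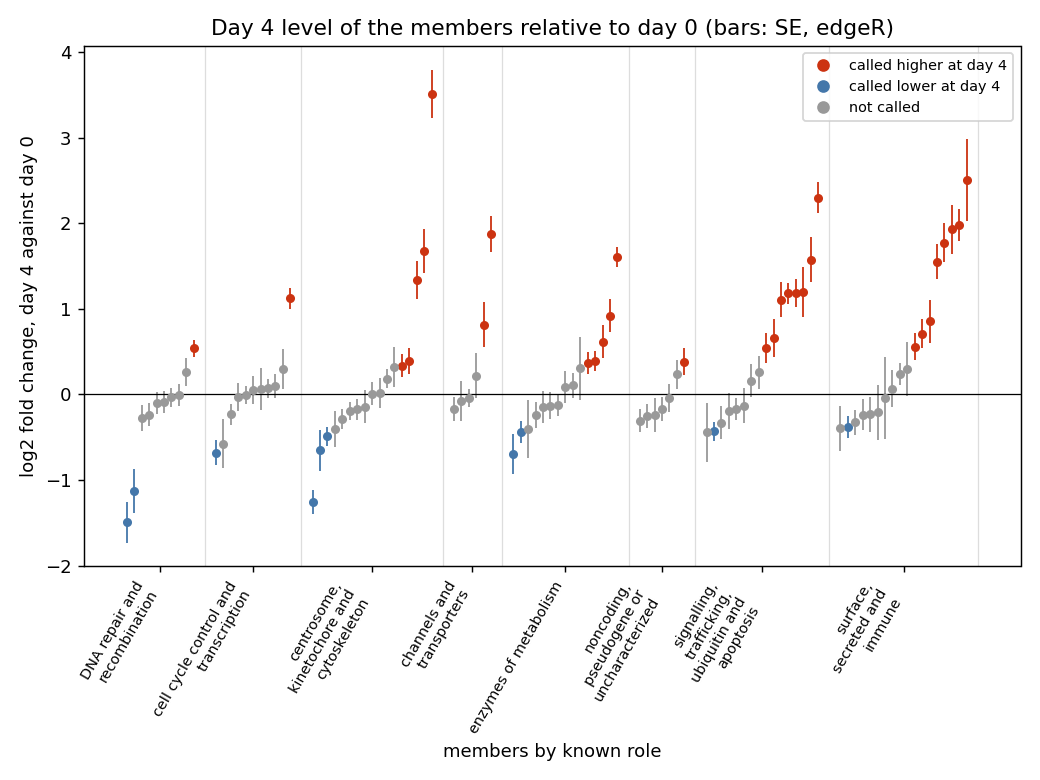
Points give the log2 fold change of day 4 against day 0 for each of the 100 members with its standard error (edgeR), grouped by known role and sorted within each role. Red points are the 31 members called higher at day 4, blue the 10 called lower and grey the 59 not called, with Obsl1 at the top (3.51) and Mnd1 at the bottom (-1.495).

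DNA repair and recombination is the known role of 10 members, of which 1 was higher at day 4 than at day 0, 2 (Mnd1 and its copy Mnd1-ps) were lower and 7 were not called. Mnd1, which helps recombinases pair DNA strands in meiosis, was at 1.84 and 2.23 CPM on day 0, 6.19 and 5.62 CPM on day 2 and 0.878 and 0.701 CPM on day 4. It fell below its starting level by day 4, with a log2 fold change of -1.495 (SE 0.24, adjusted p = 0.000169). The related sequence Mnd1-ps (chr14:9884095-9886868), a Mnd1 pseudogene inside the Fhit gene, showed 2.40 and 3.49 CPM on day 0, 9.20 and 8.48 CPM on day 2 and 1.13 and 1.75 CPM on day 4 and was also lower at day 4 than at day 0 (log2 fold change -1.13, SE 0.26, adjusted p = 0.00236). Reads of a gene and its processed copy can be shared, so the split between Mnd1 (chr3:84087933-84155798) and Mnd1-ps is uncertain, and the 2 lower members of this role may be a single signal. Psmc3ip, which encodes the partner of MND1, stayed at or below 0.822 CPM in every library, and Dmc1 had at most 3 counts in any library.

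Zranb3, a translocase that remodels stalled replication forks, was at 15.0 and 13.2 CPM on day 0, 28.6 and 27.8 CPM on day 2 and 13.5 and 14.9 CPM on day 4. Rad54b, a translocase of homologous recombination, was at 9.72 and 9.65 CPM on day 0, 19.9 and 18.2 CPM on day 2 and 10.3 and 9.47 CPM on day 4. Ddias, a gene known for protecting cells from apoptosis after DNA damage, was at 15.1 and 13.0 CPM on day 0, 27.6 and 23.1 CPM on day 2 and 13.4 and 12.4 CPM on day 4. Xrcc2, a gene of homologous recombination, reached 35.8 and 32.7 CPM on day 0, 57.1 and 61.3 CPM on day 2 and 33.5 and 40.03 CPM on day 4. In all 4 genes the day 0 and day 4 ranges overlapped, and day 4 against day 0 was not called, with log2 fold changes between -0.24 and -0.01.

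Chek2, the checkpoint kinase that acts downstream of ATM, was at 19.5 and 18.2 CPM on day 0, 34.4 and 35.3 CPM on day 2 and 20.7 and 19.1 CPM on day 4, with a day 4 against day 0 log2 fold change of -0.04 (SE 0.11, adjusted p = 0.789). Neil3, a glycosylase that removes oxidized bases and unhooks crosslinks, and Bard1, the partner of BRCA1 in its ubiquitin ligase, were likewise not called, at 0.26 and -0.27. Rnaseh2a, the catalytic subunit of RNase H2, which removes ribonucleotides from DNA, was at 41.4 and 37.3 CPM on day 0, 96.4 and 94.4 CPM on day 2 and 63.2 and 60.3 CPM on day 4. It was the one repair member called higher at day 4 than at day 0, by 0.54 on the log2 scale (SE 0.10, adjusted p = 0.000617).

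Cell cycle control and transcription is the role of 11 members, of which 1 was higher at day 4 than at day 0, 1 was lower and 9 were not called. Rbl1, which encodes the pocket protein p107, was at 38.7 and 36.5 CPM on day 0, 70.0 and 66.8 CPM on day 2 and 31.5 and 37.7 CPM on day 4. Mxd3, a MAX partner expressed in S phase, was at 8.06 and 9.17 CPM on day 0, 16.7 and 20.6 CPM on day 2 and 8.41 and 9.84 CPM on day 4. For both genes the day 0 and day 4 ranges overlapped. Suz12, a core subunit of the repressive complex PRC2, was at 60.4 and 66.9 CPM on day 0, 112 and 104 CPM on day 2 and 67.6 and 69.3 CPM on day 4. Mybl1, the MYB family member A-MYB, and Pknox1, a homeodomain factor, were not called at day 4, with log2 fold changes of 0.10 and 0.07.

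Mastl, the Greatwall kinase, which keeps mitotic substrates phosphorylated by way of an inhibitor of PP2A, was at 17.9 and 16.6 CPM on day 0, 30.0 and 25.2 CPM on day 2 and 13.1 and 10.3 CPM on day 4. All day 4 libraries lay below all day 0 libraries, and the log2 fold change was -0.68 (SE 0.15, adjusted p = 0.00144). Bahcc1, a chromatin reader, was at 1.61 and 1.91 CPM on day 0, 3.59 and 4.16 CPM on day 2 and 1.73 and 0.899 CPM on day 4, with its replicates over 1.5 times apart on day 4. Pwwp3b, a PWWP domain protein, was at 1.24 and 1.89 CPM on day 0, 3.74 and 4.10 CPM on day 2 and 1.87 and 1.71 CPM on day 4. Scaper, a cyclin A interacting protein, was the member of this group called higher at day 4, at 11.5 and 12.1 CPM on day 0 and 29.8 and 25.9 CPM on day 4 (log2 fold change 1.12, SE 0.12, adjusted p = 8.82e-06). Fsbp and the zinc finger gene Zfp786 were not called. Fsbp lies within the Rad54b locus, so both may draw on the same reads.

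Relatives of several members behaved in other ways. These relatives come from 4 lists drawn up after the values were seen, so their counts are descriptions. Of 33 tested genes of homologous recombination and fork repair, 8 had both calls, namely Atr, Bard1, Chek2, Hltf, Mnd1, Rad54b, Xrcc2 and Zranb3, and 25 of the 33 were lower on day 4 than on day 2, where 16.2% of all genes were lower. That count of 8 was 4 without either day 2 library. Both calls were also made for 6 of 24 genes of centriole duplication and the centrosome (Aspm, Cep97, Cetn4, Kiz, Stil and Wdr62). They were made for 3 of 19 genes of the pocket protein, E2F and MuvB group (Lin9, Mybl1 and Rbl1). Of 16 genes of base excision repair and RNase H2, 2 had them (Neil3 and Rnaseh2a). The counts of these 3 lists also fell without day 2 replicate 1. The background is 2.18% of all genes, and the lists were made around members. From day 0 to day 2, recombination and fork repair had 8 genes higher and 8 lower. Of all genes tested, 31.0% were higher and 31.5% lower over that step. Centriole and centrosome genes had 8 higher and 6 lower, the pocket protein group 7 and 5, and base excision repair and RNase H2 2 and 7. At day 4, 22 of the 33 recombination genes were lower than on day 0 and 2 were higher.

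Among pocket proteins, Rbl2 was at 15.9 and 13.3 CPM on day 0, 38.3 and 36.0 CPM on day 2 and 38.4 and 42.9 CPM on day 4 and was higher at day 4 than at day 0 by 1.37 on the log2 scale (SE 0.13, adjusted p = 3.76e-06). Rb1 was higher by 1.15 (SE 0.11, adjusted p = 2.67e-06), and neither gene was called between day 2 and day 4. Mybl2, the B-MYB factor of the MuvB complex, was at 152 and 158 CPM on day 0, 64.3 and 63.3 CPM on day 2 and 33.0 and 34.3 CPM on day 4 and fell at each step while Mybl1 peaked. The RNase H2 subunit gene Rnaseh2b was at 34.5 and 36.4 CPM on day 0, 16.5 and 12.8 CPM on day 2 and 9.24 and 7.91 CPM on day 4, a fall of 2.17 on the log2 scale from day 0 to day 4, and Rnaseh2c was not called for that contrast (log2 fold change -0.11). Chek1, the kinase downstream of ATR, was at 42.9 and 42.6 CPM on day 0, 49.7 and 41.3 CPM on day 2 and 14.9 and 18.6 CPM on day 4, with no call between days 0 and 2 and a fall of 1.46 on the log2 scale from day 0 to day 4. Differences between relatives were not themselves tested.

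**Figure D3:**
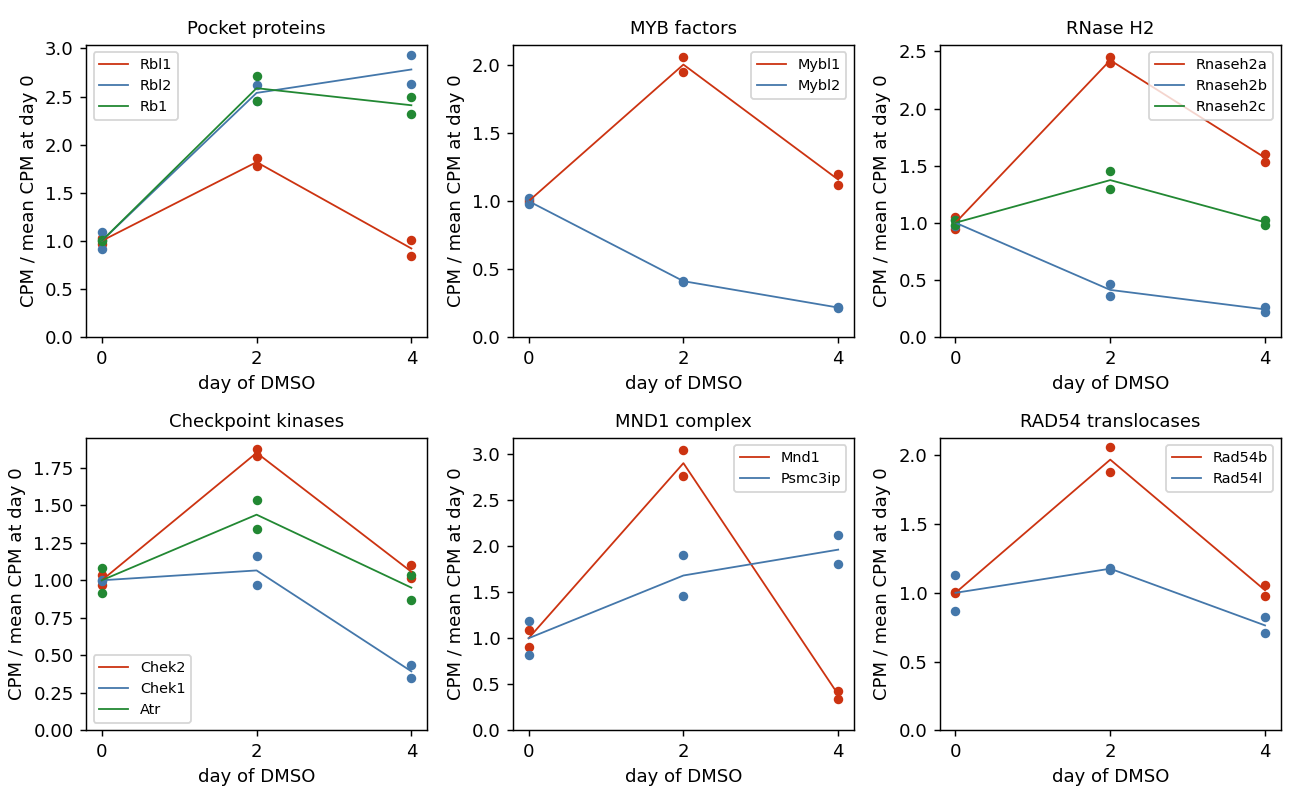
CPM in each library divided by the gene's mean CPM on day 0 (vertical axis) against the day of DMSO (horizontal axis), with lines through the means of 2 replicates, for members (red) and relatives in 6 small families or complexes. Rbl1, Mybl1, Rnaseh2a, Chek2, Mnd1 and Rad54b turn down after day 2, while Rbl2 and Rb1 stay up and Mybl2 and Rnaseh2b fall from day 0 on.

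Centrosomes, kinetochores or the cytoskeleton contain the products of 17 members, and 5 of them were higher at day 4 than at day 0, 3 were lower and 9 were not called. Septin4 (chr11:87566689-87590543), a septin GTPase whose ARTS isoform promotes apoptosis, had the highest score of all members, at 1.08 and 1.08 CPM on day 0, 9.96 and 9.06 CPM on day 2 and 2.49 and 3.35 CPM on day 4. It was still higher at day 4 than at day 0 (log2 fold change for day 4 against day 0 1.33, SE 0.22, adjusted p = 0.000227). Stil, required for centriole duplication, was at 32.2 and 25.8 CPM on day 0, 48.1 and 47.2 CPM on day 2 and 27.5 and 28.0 CPM on day 4, and its day 0 and day 4 ranges overlapped. Cep97, which restrains the growth of centrioles into cilia, was not called. Kiz, which stabilizes the spindle pole, was higher by 0.33 (adjusted p = 0.0438), a call not followed under other processing.

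Dnah8, an axonemal dynein heavy chain of sperm flagella, was at 48.5 and 44.8 CPM on day 0, 85.3 and 81.2 CPM on day 2 and 24.7 and 17.7 CPM on day 4. It fell well below its starting level, with a log2 fold change of -1.26 (SE 0.14, adjusted p = 1.17e-05). Itgb3bp, which encodes the kinetochore protein CENP-R, and Diaph3, an actin-nucleating formin of the cytokinetic furrow, were lower at day 4 as well, at -0.65 and -0.49. Obsl1, a cytoskeletal adaptor of the CUL7 ubiquitin ligase, showed the largest day 4 rise among members, at 0.207 and 0.167 CPM on day 0, 4.08 and 4.34 CPM on day 2 and 2.29 and 2.35 CPM on day 4 (log2 fold change 3.51, SE 0.28, adjusted p = 9.66e-07). Prx, known as a scaffold of myelinating Schwann cells, was at 2.23 and 2.47 CPM on day 0, 5.09 and 4.92 CPM on day 2 and 2.46 and 2.17 CPM on day 4. Syne1, which ties the nuclear envelope to the cytoskeleton, was at 31.7 and 32.0 CPM on day 0, 48.6 and 49.5 CPM on day 2 and 30.1 and 30.3 CPM on day 4. Neither of these 2 was called. Fgd2, an activator of CDC42, and Fhod3, a formin, were higher at day 4, by 1.67 and 0.39, while Trio (a guanine nucleotide exchange factor), Nav2 (a neuron navigator), Gas2 and Aif1l (actin-binding proteins) and Cetn4 (a centrin) were not called.

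Channels and transporters are encoded by 6 members, and 2 of them were still higher at day 4 than at day 0. Cacna1c, the pore subunit of an L-type calcium channel, was at 2.05 and 2.58 CPM on day 0, 19.1 and 19.7 CPM on day 2 and 11.2 and 7.36 CPM on day 4, with a log2 fold change of 1.87 (SE 0.21, adjusted p = 1.13e-05). Slc29a1, the equilibrative nucleoside transporter ENT1, which is abundant on red cells, had the highest day 2 level of all members, at 117 and 89.7 CPM on day 0, 172 and 187 CPM on day 2 and 90.9 and 107 CPM on day 4. Vps13c, a lipid transfer protein, was at 94.2 and 82.2 CPM on day 0, 150.5 and 145 CPM on day 2 and 95.7 and 89.7 CPM on day 4. The day 0 and day 4 ranges of both overlapped. Slc9a9, a sodium-proton exchanger of endosomes, was higher at day 4 by 0.81, and Slc18a2, a monoamine transporter of vesicles, and Aqp3, a water and glycerol channel, were not called. On day 4 the replicates of Slc18a2 were 17.5 and 8.97 CPM.

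Enzymes of metabolism or related proteins are encoded by 15 members, and 5 of them were higher at day 4 than at day 0, 2 were lower and 8 were not called. Hebp1 (chr6:135137519-135168215), a heme-binding protein, was at 16.1 and 13.7 CPM on day 0, 96.7 and 90.0 CPM on day 2 and 50.7 and 47.6 CPM on day 4. Its day 4 libraries lay midway, above day 0 and below day 2 (log2 fold change against day 0 1.61, SE 0.12, adjusted p = 4.83e-07). B4galnt2, the glycosyltransferase of the Sda blood group antigen, was at 5.85 and 12.6 CPM on day 0, 23.6 and 21.9 CPM on day 2 and 10.4 and 5.09 CPM on day 4, with replicates over 1.5 times apart on days 0 and 4. Scpep1, a serine carboxypeptidase, was at 13.3 and 10.98 CPM on day 0, 33.4 and 33.7 CPM on day 2 and 17.3 and 16.5 CPM on day 4 and was called higher at day 4 (log2 fold change 0.37, adjusted p = 0.0224), a call lost without day 0 replicate 2 (adjusted p = 0.107), without day 4 replicate 1 (0.0862), without day 4 replicate 2 (0.073) and in a fit of only the days compared (0.0524).

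Cryz, a quinone oxidoreductase, was at 10.2 and 10.4 CPM on day 0, 18.9 and 18.7 CPM on day 2 and 8.13 and 8.26 CPM on day 4 and ended lower at day 4 (log2 fold change -0.44, adjusted p = 0.00912), a call lost narrowly without day 4 replicate 1 (adjusted p = 0.0511). Enpp1, which makes pyrophosphate from ATP, was at 1.89 and 2.26 CPM on day 0, 3.41 and 4.25 CPM on day 2 and 1.27 and 1.49 CPM on day 4 and also ended lower (log2 fold change -0.70, adjusted p = 0.0181). Without day 0 replicate 2 or day 4 replicate 1 the adjusted p of Enpp1 was 0.088 or 0.0896, and with DESeq2 it was 0.0531. Dsel, Srd5a1 and Ogdhl, which act on dermatan sulfate, steroids and 2-oxoglutarate, were higher at day 4 by 0.92, 0.61 and 0.39. The transglutaminase gene Tgm1, the vitamin K reductase gene Vkorc1, the glycosyltransferase genes B4galnt4 and Tmtc4, Hacl1 (alpha-oxidation of fatty acids), Cryl1 and Ndufa4l2 were not called.

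Signalling, trafficking, ubiquitin transfer or apoptosis is the role of 16 members, and 8 of them were higher at day 4 than at day 0, 1 was lower and 7 were not called. Deptor, an inhibitor of the mTOR kinase, was at 2.88 and 4.38 CPM on day 0, 17.2 and 14.6 CPM on day 2 and 8.53 and 8.55 CPM on day 4. Hecw1, a HECT ubiquitin ligase, was at 1.04 and 1.08 CPM on day 0, 9.73 and 9.17 CPM on day 2 and 5.98 and 5.30 CPM on day 4. Camkv, a kinase-like protein without kinase activity, was at 1.70 and 1.24 CPM on day 0, 6.78 and 5.69 CPM on day 2 and 2.69 and 2.32 CPM on day 4. Tulp2, a tubby-like protein, was at 0.530 and 0.445 CPM on day 0, 3.29 and 3.68 CPM on day 2 and 1.73 and 1.42 CPM on day 4. Each of these 4 was higher at day 4 than at day 0, with log2 fold changes at day 4 of 1.11 for Deptor, 2.29 for Hecw1, 1.57 for Tulp2 and 0.66 for Camkv. The call of Camkv (adjusted p = 0.0201) was lost without day 0 replicate 2 (adjusted p = 0.13), without day 4 replicate 1 (0.0791) and with DESeq2 (0.0576).

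Bik, a BH3-only protein that promotes apoptosis, was higher at day 4 by 1.19 (SE 0.16, adjusted p = 5.30e-05), with 2.46 and 2.28 CPM on day 0, 10.2 and 11.3 CPM on day 2 and 5.72 and 5.94 CPM on day 4. Fundc2, a mitochondrial outer membrane protein, was at 47.2 and 55.0 CPM on day 0, 92.8 and 84.5 CPM on day 2 and 54.7 and 43.8 CPM on day 4, with no call for day 4 against day 0. Map2k6, which activates p38, the ubiquitin ligase gene Rnf157 and the receptor phosphatase gene Ptpru were higher at day 4, by 1.19, 1.18 and 0.54. Rab27a, a GTPase of secretory granules, was lower by 0.43 on the log2 scale. The exchange factor genes Rasgef1a and Rasgef1c, the calmodulin-dependent kinase gene Camk1d, Efr3b (a membrane anchor of a phosphatidylinositol kinase), Tbc1d30 (a RAB regulator) and Mapk8ip1 (a JNK scaffold) were not called.

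Surface, secreted or immune proteins are encoded by 18 members, and 8 of them were higher at day 4 than at day 0, 1 was lower and 9 were not called. Crip1 (chr12:113152012-113153879), a small LIM domain protein, had the second highest score, at 54.8 and 37.1 CPM on day 0, 111 and 126 CPM on day 2 and 36.4 and 47.5 CPM on day 4, and its day 0 and day 4 ranges overlapped (log2 fold change -0.24, SE 0.18, adjusted p = 0.257). S100a6, a calcium-binding protein of motile cells, was at 8.89 and 9.52 CPM on day 0, 16.6 and 14.2 CPM on day 2 and 8.22 and 7.69 CPM on day 4. Adamts17, a secreted metalloproteinase, was at 1.47 and 1.22 CPM on day 0, 9.68 and 9.85 CPM on day 2 and 6.29 and 5.24 CPM on day 4. Olfm2, an olfactomedin, was at 0.691 and 0.668 CPM on day 0, 5.22 and 5.12 CPM on day 2 and 2.04 and 3.49 CPM on day 4. The last 2 stayed up at day 4, by 1.98 (SE 0.18, adjusted p = 2.86e-06) and 1.93 (SE 0.29, adjusted p = 0.000112). Itih5 (a hyaluronan-binding protein), Enho (the peptide adropin), Prrg1 and the lectin gene Clec2l were also higher at day 4, and Neto2, an auxiliary subunit of kainate receptors, was lower. Olfml2a, Paqr4, Tnfrsf18 (the receptor GITR), Lrp4 (a receptor for agrin) and Psmb9 (an immunoproteasome subunit) were not called.

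Apol8, an apolipoprotein L, was at 0.806 and 0.705 CPM on day 0, 5.37 and 6.45 CPM on day 2 and 3.03 and 2.56 CPM on day 4. All 5 tested apolipoprotein L genes were higher at day 4 than at day 0, and 4 of them were still rising from day 2 to day 4, whereas Apol8 was the 1 that fell over that step. These genes lie in a family of close copies that can share reads, so single levels are uncertain, and without day 2 replicate 2 no gene of the family had both calls.

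Lyz2, Il1b and Cd3g are known from immune cells, and their levels were low. Lyz2, the lysozyme of macrophages and granulocytes, was at 0.415 and 0.241 CPM on day 0, 1.83 and 1.31 CPM on day 2 and 0.482 and 0.219 CPM on day 4, which is between 10 and 72 counts per library. The summed level of 24 myeloid genes fell at both steps, from 693 and 754 CPM on day 0 to 240.03 and 245 CPM on day 2 and 209 and 202 CPM on day 4, and 2 of the 24 had no count in any library. Lyz2 was the only one of the 15 tested myeloid genes with both calls. Il1b, the cytokine interleukin-1 beta, was at 0.829 and 0.538 CPM on day 0, 1.88 and 1.94 CPM on day 2 and 1.10 and 0.723 CPM on day 4.

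Cd3g, a chain of the T cell receptor complex, was at 0.0461 and 0.111 CPM on day 0, 1.22 and 1.37 CPM on day 2 and 0.453 and 0.570 CPM on day 4, with 2 and 6 counts in the day 0 libraries. It remained higher at day 4 (log2 fold change 2.51, SE 0.48, adjusted p = 0.000663). Of the other T cell markers, Cd3e, Cd4 and Cd8a had at most 1 count in any library, and Cd3d was at 0.368 and 0.329 CPM on day 4 and at most 0.102 CPM before. The summed level of the 6 markers was 10.9 and 9.04 CPM on day 0, 10.9 and 11.3 CPM on day 2 and 6.29 and 4.78 CPM on day 4, most of it Lck. The 5 B cell, 4 endothelial and 5 fibroblast markers held no gene with both calls, and their summed levels were highest on day 0, at no more than 14.3 CPM.

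Noncoding RNAs, pseudogenes and uncharacterized genes make up 7 members, and 6 of them were not called for day 4 against day 0. The host transcript of small nucleolar RNAs 2410006H16Rik was at 87.9 and 69.6 CPM on day 0, 137 and 123 CPM on day 2 and 80.0 and 63.4 CPM on day 4. Snhg6, another such host gene, was at 5.78 and 4.88 CPM on day 0, 14.2 and 12.2 CPM on day 2 and 7.62 and 6.01 CPM on day 4. Rps15a-ps4, a processed copy of a ribosomal protein gene, was at 47.0 and 42.7 CPM on day 0, 80.3 and 62.3 CPM on day 2 and 47.3 and 38.9 CPM on day 4, and its level is uncertain for the same reason as that of Mnd1-ps. The transcribed pseudogene 2700099C18Rik, which overlaps Mettl4 and Gm1976 and may share reads, was at 6.59 and 6.86 CPM on day 0, 18.7 and 17.2 CPM on day 2 and 10.9 and 8.22 CPM on day 4. Its day 4 call (log2 fold change 0.38, adjusted p = 0.045) was lost without day 0 replicate 1, day 2 replicate 1, day 2 replicate 2 or day 4 replicate 1, with adjusted p between 0.0747 and 0.341, and also with DESeq2 (0.0936), relative log expression factors (0.0554) and a fit of only the days compared (0.0814). Rnf227, 9530077C05Rik and 4930558J18Rik were not called.

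**Figure D4:**
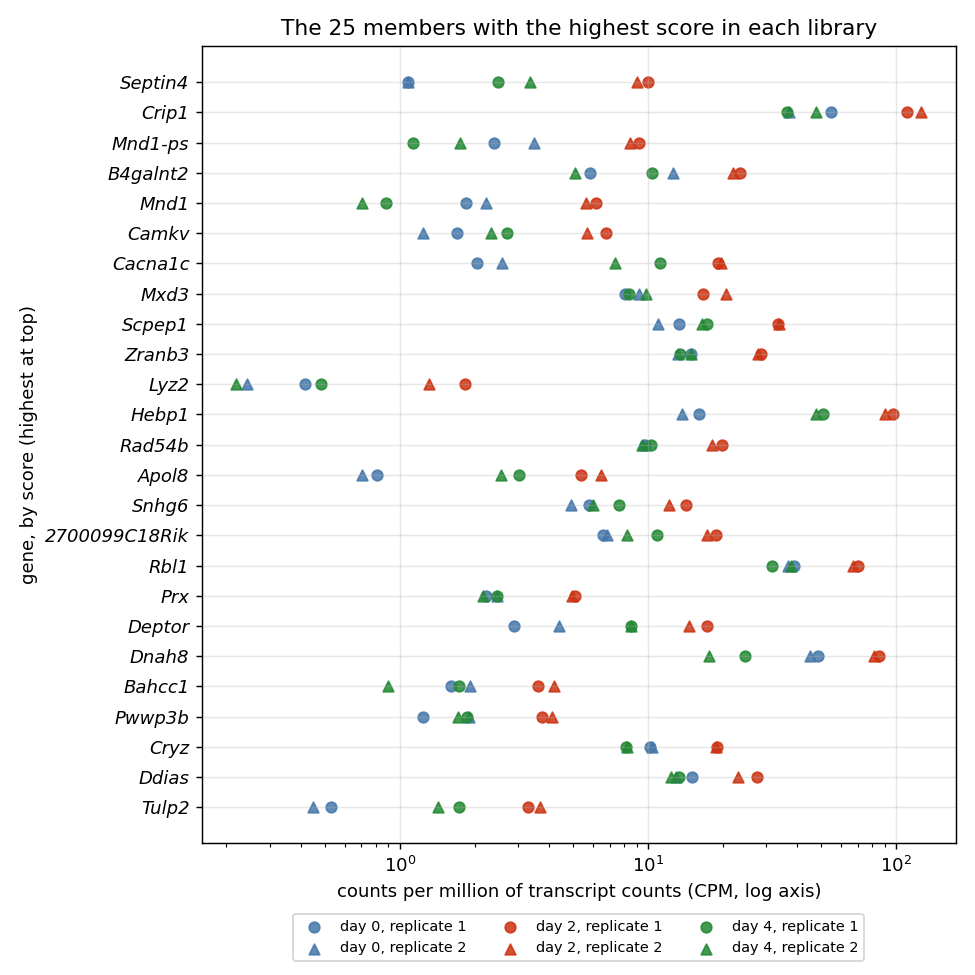
CPM on a log axis (horizontal) for the 25 members with the highest scores (vertical, highest at the top), with one symbol per library, circles for replicate 1 and triangles for replicate 2. The red day 2 symbols lie right of all others by the rule, while green day 4 symbols lie right of blue day 0 symbols for genes such as Septin4, Cacna1c and Hebp1 and left of them for Mnd1 and Dnah8.

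Per kilobase of transcript the most abundant members on day 2 were 2410006H16Rik at 281 CPM per kilobase and Crip1 at 266 CPM per kilobase. Hebp1 reached 88.2 and Slc29a1 85.7 CPM per kilobase, and the lowest member on this scale was Bahcc1 at 0.361 CPM per kilobase.

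Pathway lists that could have shared such a peak mostly held no such gene. Of 39 tested interferon-stimulated genes, 0 had both calls, while 25 were higher on day 2 than on day 0 (31.0% of all genes tested) and 27 were higher on day 4 than on day 0 (35.5%). For the 18 immediate early genes and the 18 p53 targets the count with both calls was 0, with 7 and 2 of them higher on day 4 than on day 2, where 14.0% of all genes were higher. It was 0 as well for 20 genes of the integrated stress response, of which 15 were lower on day 4 than on day 2 (16.2% of all genes) after 17 had been lower on day 2 than on day 0 (31.5%). Cholesterol synthesis and uptake (22 genes), NRF2 targets (12), hypoxia and glycolysis (14), cytokine and growth factor receptors (25), targets of Notch, TGF-beta and Wnt (11), megakaryocyte and platelet genes (14) and mast cell and basophil genes (11) also had 0. Itgb7 and S100a6 were the 2 of 21 genes of actin cytoskeleton and adhesion with both calls, and that list had 1 without either day 2 library or either day 4 library. With 2.18% of all genes tested having both calls, a count of 0 or 1 in a list of this length does not set the list apart.

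The same score was then computed with the replicates kept apart, to choose 100 genes anew on 1 replicate and score them in the other. The members themselves were chosen on all 6 libraries, so no values are held out for them. What follows describes the newly chosen genes. Both replicates were scored in CPM without TMM, so both include the shift of the median gene with total counts. When 100 genes were chosen on replicate 1 of each day, day 2 was the highest day in replicate 2 for 92 of them, against 29.6% of all genes with a count. When they were chosen on replicate 2, day 2 was the highest day in replicate 1 for 95 of them, against 29.1%. These shares of all genes include every gene with at least 1 count in the replicate not used. They are not matched to the chosen genes in level, so the gap is a description and not a test of the peak. The scores shrank. Their median was 0.75 in the replicate that chose the genes and 0.57 in the other one, and 0.76 and 0.55 with the replicates exchanged. Of the 100 genes chosen on replicate 1, 41 reached in replicate 2 the lowest score that had been needed, and 37 did so the other way round. The 2 selections shared 66 and 62 genes with the members.

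**Figure D5:**
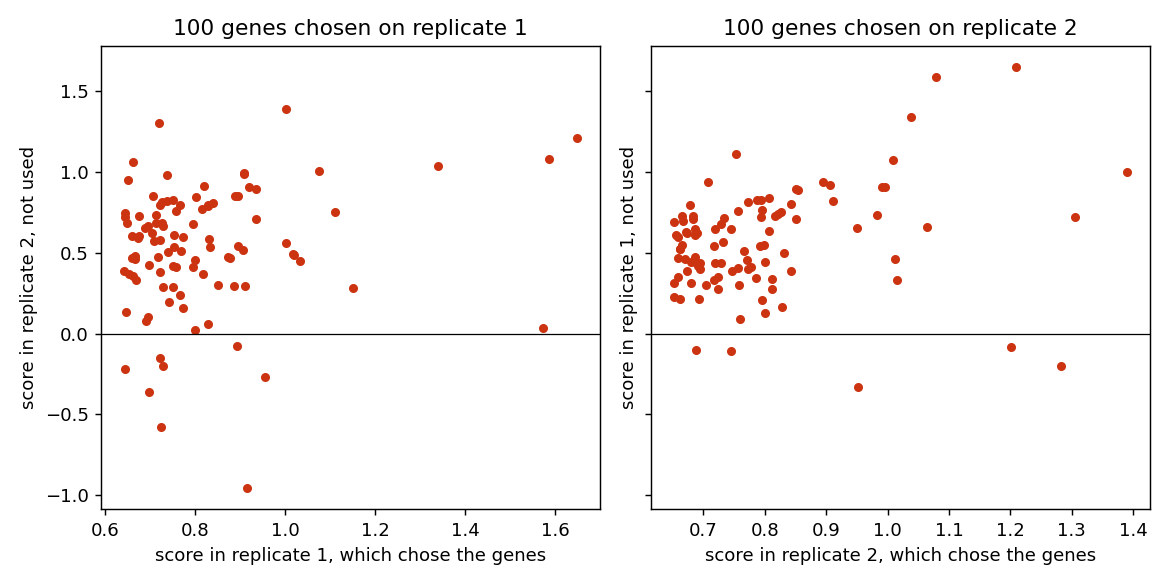
Score (smaller of day 2 minus day 0 and day 2 minus day 4, in log2(CPM + 1)) in the replicate that chose 100 genes (horizontal) against the score of the same genes in the replicate not used (vertical). Of these genes, 92 (left, chosen on replicate 1) and 95 (right, chosen on replicate 2) lie above 0 in the other replicate, with medians of 0.57 and 0.55.

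The limit of 100 genes fell in a smooth series. The last 5 members were Bard1, Scaper, Cd3g, Aqp3 and Rnf157, with scores of 0.604, 0.604, 0.604, 0.603 and 0.601. The first 5 genes outside were Paip2b at 0.597, Wdr62 at 0.596, Cdr2 at 0.593, Itgb7 at 0.592 and Kif5a at 0.592.

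Sequence and position were not used by the rule and are given beside those of all genes tested. Of 99 members with coordinates, 92 were protein coding (92.9%, against 93.2% of all genes tested) and 3 were on the X chromosome (3.03% against 3.24%). Their median transcript length was 2870 bases against 2777, and median GC content was 50.2% against 50.8%. The stretch after the coding sequence had a median of 801 bases against 931, and the AU-rich heptamer TATTTAT was found in it in 26.1% of members and 26.5% of all genes. The members' genes spanned a median of 34341 bases against 20202. Members were spread over 20 chromosomes. Only 4 pairs lay within 500 kb of each other, which were Rad54b and Fsbp (overlapping), Snhg6 and Mybl1 (241586 bases apart), Ptpru and Rps15a-ps4 (381587) and Cacna1c and Rasgef1a (495694).

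Of the 99 members with coordinates, 19 overlap another tested gene, among them Mxd3 (with Prelid1), Mastl (with Yme1l1), Cryz (with Tyw3) and Tulp2 (with Nucb1 and Ppp1r15a). How reads in such overlaps were counted is not given in the sources used here, so these levels carry that uncertainty.

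Other promoter letters were also searched on both strands. The E2F sequences were in 3.75% of the members' promoters and 1.79% of all promoters, which is 3 members, Rbl1, Paqr4 and Psmb9. The CHR sequences of late cell cycle genes (TTTGAA or TTCGAA) were in 11.2% against 13.8%. Both were added after the members were known. The remaining searches gave 5.0% against 6.84% for the interferon response core (GAAANNGAA), 10.0% against 6.9% for STAT (TTCNNNGAA), 2.5% against 4.71% for AP-1 (TGANTCA), 3.75% against 3.38% for CRE (TGACGTCA) and 3.75% against 3.24% for PU.1 (GAGGAAGT). They gave 3.75% against 6.95% for the TATA box (TATAAA), 6.25% against 5.56% for heat shock (GAANNTTC), 12.5% against 12.3% for RUNX (TGTGGT), 22.5% against 26.1% for HIF (ACGTG) and 8.75% against 10.2% for the E-box (CACGTG), every one of which also holds a HIF match. The CACCC share showed the widest gap, and over the roles it was 9 of 11 promoters in signalling, trafficking, ubiquitin and apoptosis, 9 of 16 in surface, secreted and immune proteins, 4 of 5 in channels and transporters, 4 of 8 in cell cycle control and transcription, 7 of 14 in enzymes of metabolism, 6 of 16 in centrosome, kinetochore and cytoskeleton, 3 of 7 in DNA repair and 0 of 3 in noncoding and pseudogenes. Median promoter GC content was 61.7% for members and 61.0% for all genes. These shares are descriptions without a test.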

How the data were processed

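MEL cells were sequenced at 0, 2 and 4 days of DMSO with 2 biological replicates per day, and day and replicate were taken from the sample labels. The authors made stranded poly(A) libraries, trimmed adapters with cutadapt, aligned reads to mm10 (GRCm38) with TopHat, allowing several alignments per read, and, for each RefSeq transcript, deposited the raw read counts with no scaling or pooling. HTSeq is named in the submitters' processing notes, and its version, mode and annotation release are not given in the sources used here. The rows for reads assigned to no transcript (5 bookkeeping rows) were left out. Reads matching no feature were 50.5% and 54.1% of all reads in the rows on day 0. They were 53.8% and 52.7% on day 2 and 58.1% and 58.4% on day 4. CPM leaves these reads out of its total.

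Of 32654 transcripts, 32199 were named from a RefSeq table of GRCm38.p6 and 187 from GENCODE, and 268 had no name. Members were chosen from CPM as the report describes. Calls on these counts came from edgeR 4.0.16 in R 4.3.3 (TMM, filterByExpr, 1 quasi-likelihood fit over all libraries, Benjamini-Hochberg adjustment over all transcripts tested, adjusted p below 0.05), with DESeq2 1.42.0 as an alternative. Every adjusted p in the report is from edgeR, except where DESeq2 is named beside the value. The other alternatives were other scalings, pseudocounts and filters, a fold limit, the days compared alone, the replicate number as a block, and leaving out libraries. The main fit was also run on counts simulated from its own means and spread, which cannot check whether that spread is right. The members, gene lists and roles were chosen with earlier results of these data known. Members named with values are the 25 with the highest score, the 10 others highest on day 2, members of a list, and the 5 largest rises and falls for day 4 against day 0. Bik, Chek2, Il1b, Scaper and others were named after their values were seen. With 2 libraries per day, p-values rest on a spread shared over days. The result of 1 gene list is not reported here.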

Additional observations from a re-analysis of the deposited data

How the results depend on the processing

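Membership of the 100 genes depended most on the pseudocount, with 54 kept at 0.1 CPM and 63 at 5 CPM. It was 62 without replicate 1 and 66 without replicate 2 on every day, and 75 to 87 with a single library left out. TMM-scaled library sizes kept 88 and totals without globin transcripts 94, and leaving out pseudogenes (an alternative chosen after seeing the data) kept 97. For day 4 against day 0, leaving out libraries gave 25 to 28 higher members and 9 to 19 lower ones, and asking also for a log2 change of 1 or more in size gave 17 and 3. Genes with both calls were 535 with total counts alone, 27 with that fold limit, 184 with DESeq2 and 37 to 434 with a library left out. Members with both calls were 14 with the fold limit, 89 with DESeq2 and 35 to 95 with a library left out. The cause of these differences was not tested. No alternative reversed the day 4 fold change of the 21 named members that were called, and of 252 such values 234 kept their call and 18 did not.

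No strong effect shared by libraries with the same replicate number was seen, since their deviations correlated at 0.03 to 0.08. That does not show whether the cultures were paired. With the replicate block the counts were 30 higher and 11 lower members for day 4 against day 0, and 257 genes with both calls. With 2 libraries per day, leaving 1 out assumes that the lone library varies like the others. Genes with few counts, such as Lyz2 and Cd3g, are limited by depth. The day 4 calls of members outside the 21, among them Kiz, Fhod3, Itgb3bp and Neto2, were not followed singly under the alternatives. Their adjusted p values in the edgeR fit were 0.0438, 0.0361, 0.0304 and 0.0215.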
